A study of Mus musculus with 11 samples.

Results

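The comparison described here is the interaction between genotype and drug in mouse inguinal white adipose tissue, that is, whether rosiglitazone changed the tissue's RNA differently in mice with and without mTORC1 in their adipocytes. For each gene it is the log2 fold change with rosiglitazone in knockout tissue minus the log2 fold change with rosiglitazone in control tissue, so a positive value means that the drug left the gene relatively higher in the knockout. All 11 libraries of the series entered 1 model, and 26960 genes were tested. The interaction passed an adjusted p of 0.05 in 28 genes, which is 0.104% of those tested, 23 with a positive and 5 with a negative value.

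The mice were C57BL6/J, aged 16 weeks at collection, and all ate a high-fat diet for 8 weeks from the age of 8 weeks. Control mice (WT) carried floxed Raptor alleles, and knockout mice (KO) carried floxed Raptor and a Cre recombinase driven by the adiponectin promoter, so that recombination is directed to adipocytes while the other cells of the depot keep the gene. The 4 groups were WT on diet (3 libraries), WT on diet with rosiglitazone at 30 mg/kg/day (3 libraries), KO on diet (2 libraries) and KO on diet with rosiglitazone at the same dose (3 libraries). The labels number the samples in a group but do not say whether each came from its own animal. The spread behind each p-value is therefore not known to be that between animals. The 6 WT samples carry titles that contradict their treatment field, with drug and diet exchanged. The field, which the file names share, was used. Values with WT grouped by titles are given beside the list medians and, for the called genes they turn, in the closing section.

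Rosiglitazone is an agonist of PPARG, the nuclear receptor that drives adipocyte genes for lipid storage and mitochondrial oxidation. Raptor is the subunit that defines mTORC1, a kinase complex that couples nutrients and insulin to protein synthesis, lipogenic transcription and, by restraining TFEB factors, to lysosome formation. In obese fat, macrophages around stressed or dying adipocytes take on a lipid-associated state with lysosomal and lipid-handling genes.

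Libraries held 13035346 to 40925952 estimated reads. Rptor was at 92.0, 80.1 and 73.9 CPM (counts scaled to the library's size) in WT on diet, 119, 126 and 110 in WT with rosiglitazone, 56.5 and 69.6 in KO on diet, and 88.3, 82.4 and 91.7 in KO with rosiglitazone. Each KO group lay below the WT group of the same treatment, without overlap, and the interaction was -0.06 ± 0.22 (SE, adjusted p = 0.943). Adipocyte markers were present in every library, and their summed level was 16217 to 47784 CPM in WT on diet, 44048 to 50609 in WT with rosiglitazone, 3780 to 11436 in KO on diet and 7006 to 8250 in KO with rosiglitazone. In bulk tissue, fewer cells of a type and less RNA per cell cannot be told apart. Reads of skeletal muscle markers made up 4.49% of replicate 2 of KO with rosiglitazone, 1.9% of replicate 2 of WT on diet, and 1.78% and 0.878% of replicates 3 and 2 of WT with rosiglitazone, against at most 0.136% elsewhere. Loci that collect ribosomal and signal recognition particle RNA held 19.4% to 31.3% of reads in KO with rosiglitazone and 10.6% to 19.8% in the other libraries.

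All 23 genes with a positive interaction (0.0853% of the genes tested) had a lower fitted level with rosiglitazone in WT, and 22 had a higher one in KO. In 21 of the 23, the drug's libraries were separate from the diet's in both genotypes, as in 318 of all tested genes (1.18%). The genes were selected for this difference in the same libraries, so these counts describe them and test nothing. KO with rosiglitazone lay above every other library in 21 genes, and WT with rosiglitazone lay below every other library in 21. These orders were not counted over all tested genes, so the counts likewise only describe the selected genes. The median interaction was 2.37, with a range of 1.40 to 11.41. Taken arm by arm, 14 of the 23 fell with rosiglitazone in WT at an adjusted p of 0.05 and 2 rose in KO. Over all genes the WT arm gave 578 calls (2.14%), 418 higher (1.55%) and 160 lower (0.593%), and the KO arm 4 (0.0148%). Those 4 were Hist1h2ap, C77080 and Btnl4, which rose, and Slc2a5, which fell.

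**Figure D1:**
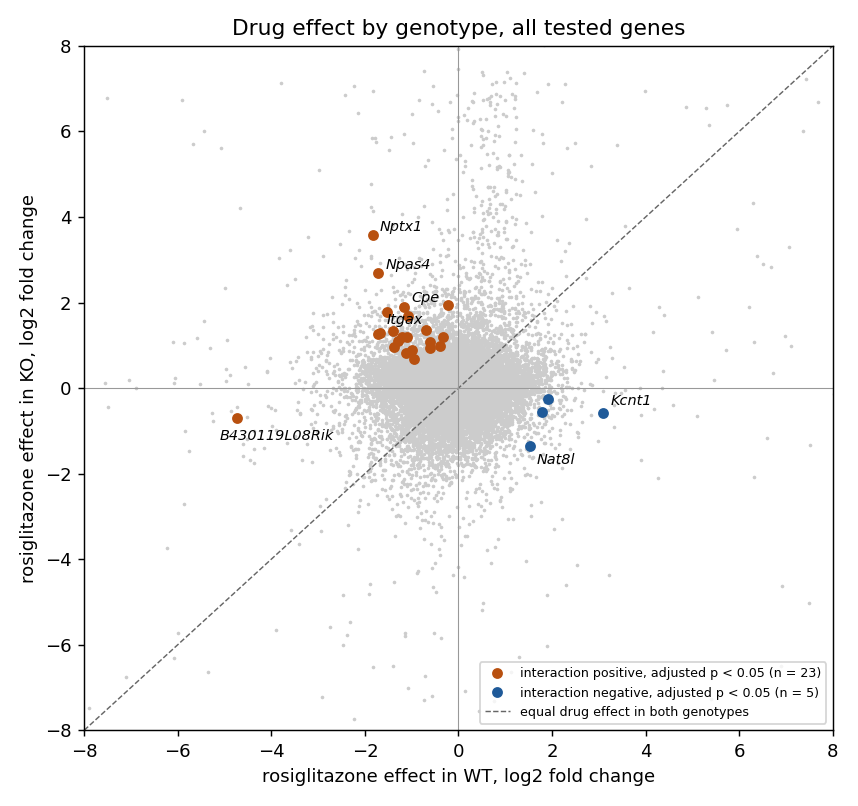
Each point is 1 tested gene, placed by its log2 fold change with rosiglitazone in WT (horizontal) and in KO (vertical), and the dashed line marks equal effects. Except for B430119L08Rik, the positive genes drawn sit at the upper left, lower with drug in WT and higher in KO, and the negative ones at the lower right. The axes end at 8 on the log2 scale, which leaves out 38 genes, 2 of them called (Hist1h2ap and Gm22419).

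The called genes are taken up below by what they are known for, a grouping made after they were seen and not tested. Itgax, which encodes the integrin CD11c and marks inflammatory macrophages of obese fat (chr7:128129547-128150657, GRCm38), was at 34.0, 18.9 and 20.4 CPM in WT on diet and at 7.5, 6.22 and 9.2 with rosiglitazone. In KO it was at 34.4 and 21.3 CPM on diet and at 65.3, 59.0 and 80.5 with rosiglitazone. The drug's libraries were the lowest of the series in WT and the highest in KO. The fall in WT was -1.68 ± 0.28 on the log2 scale (adjusted p = 0.0246), the KO value was 1.29 ± 0.32 (adjusted p = 0.268), and the interaction was 2.98 ± 0.43 (adjusted p = 0.0448). With WT grouped by titles it was -0.39 ± 0.41.

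Myo1f, a class I myosin of leukocytes, showed the same order. Its levels were 42.5, 32.2 and 47.7 CPM in WT on diet, 19.3, 17.1 and 20.9 in WT with rosiglitazone, 79.6 and 54.2 in KO on diet, and 159, 142 and 161 in KO with rosiglitazone. The 4 groups did not overlap, and the interaction was 2.30 ± 0.30 (adjusted p = 0.0369). Myo1e, its widely expressed paralog, had an interaction of 2.41 ± 0.35 and Cyth4, an exchange factor for ARF GTPases found in blood cells, one of 1.89 ± 0.23. Both were lowest in WT with rosiglitazone (12.2 to 21.4 CPM for Myo1e and 18.8 to 24.6 CPM for Cyth4) and highest in KO with rosiglitazone (105 to 115 and 110 to 124 CPM).

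Gpr137b, Tcirg1, Slc15a3 and Wdr91 encode proteins of lysosomes or endosomes, while none of the 45 genes on the lysosomal list described further on was called in edgeR. Gpr137b, a lysosomal membrane protein (chr13:13357620-13394014), was at 51.1, 48.1 and 52.5 CPM in WT on diet, 39.5, 38.6 and 42.2 in WT with rosiglitazone, 59.6 and 46.5 in KO on diet, and 114, 124 and 127 in KO with rosiglitazone. Most of its interaction of 1.53 ± 0.21 (adjusted p = 0.042) lay in the KO arm, where the fold change was 1.2 ± 0.16 against -0.33 ± 0.14 in WT, and neither arm passed the threshold alone. Gpr137b-ps, an annotated copy on the same chromosome, had an interaction of 1.40 ± 0.20, and the split of reads between the copies is uncertain. Tcirg1, a subunit of the proton pump that acidifies lysosomes, was at 53.9 to 67.2 CPM in WT on diet, 37.3 to 41.3 in WT with rosiglitazone, 79 and 99 in KO on diet and 165 to 205 in KO with rosiglitazone. Its interaction was 1.69 ± 0.24 (adjusted p = 0.0448). Slc15a3, a lysosomal peptide transporter, and Wdr91, a factor of endosome maturation, gave 2.34 ± 0.31 and 1.55 ± 0.23. Cerk, the ceramide kinase, gave 1.63 ± 0.24.

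**Figure D2:**
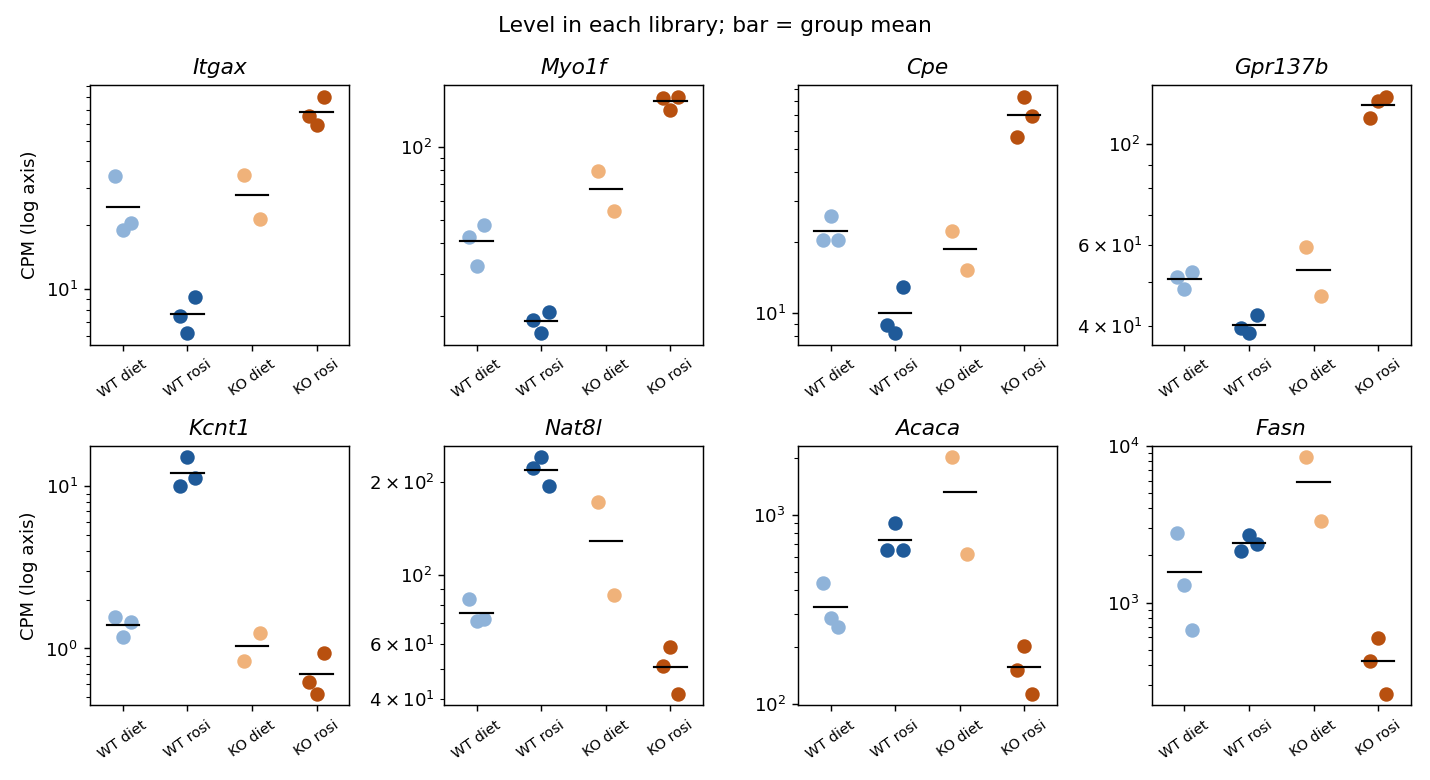
Level of 8 genes in every library (CPM, log axes); each point is 1 library, grouped by genotype (WT or KO) and treatment (diet or diet with rosiglitazone, "rosi"), and bars are group means. In the upper row KO with rosiglitazone lies above all other libraries, and in the lower row it lies below all others for Nat8l, Acaca and Fasn.

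Cpe, Nptx1, Npas4 and Map2 are best known from neurons or secretory cells. Cpe, the carboxypeptidase that trims prohormones, was at 20.5, 26.0 and 20.5 CPM in WT on diet and at 8.88, 8.21 and 12.9 with rosiglitazone. In KO it was at 22.4 and 15.2 CPM on diet and at 56.6, 83.8 and 69.1 with rosiglitazone. The diet groups overlapped and the drug groups stood on either side of them, with an interaction of 3.05 ± 0.37 (adjusted p = 0.0319). Cadm1, an adhesion molecule, followed the same order, with 3.33 to 5.58 CPM in WT with rosiglitazone and 35.2 to 41.3 in KO with rosiglitazone, and an interaction of 2.76 ± 0.34. The neuronal pentraxin Nptx1 (5.42 ± 0.77) and the activity-induced transcription factor Npas4 (4.41 ± 0.60) rested on low levels: both were below 2 CPM outside KO with rosiglitazone, where Nptx1 reached 14.3 to 18.8 CPM and Npas4 3.62 to 6.02. Pianp, a ligand of an inhibitory myeloid receptor, gave 2.97 ± 0.36. Map2, a microtubule-associated protein, gave 2.74 ± 0.39, and its KO levels with rosiglitazone (4.61, 6.85 and 5.48 CPM) overlapped those of WT on diet (3.43, 3.54 and 5.21 CPM).

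The remaining positive genes had varied roles. Hmga1, an architectural chromatin protein of proliferating cells, was at 10.5, 13.2 and 16.4 CPM in WT on diet, 8.17, 7.62 and 8.94 in WT with rosiglitazone, 16.8 and 18.9 in KO on diet, and 43.9, 42.8 and 50.5 in KO with rosiglitazone. Its interaction was 2.06 ± 0.27 (adjusted p = 0.0369). C77080 was at 9.11 to 14.3 CPM in all WT libraries, 21.6 and 14.3 in KO on diet and 66.9, 71.8 and 68.5 in KO with rosiglitazone. It rose in KO by 1.95 ± 0.23 (adjusted p = 0.0491) and showed -0.23 ± 0.20 in WT. Slc25a13, the mitochondrial aspartate-glutamate carrier, gave 2.37 ± 0.34, the focal adhesion protein Tns3 1.95 ± 0.28 and the transmembrane protein Plxdc1 3.32 ± 0.49.

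2 of the 23 need separate reading. Hist1h2ap, 1 of many near-identical histone H2A genes whose reads the counting may divide, had 0 reads in both KO diet libraries and 387 over the 3 KO rosiglitazone libraries, a level at least 129-fold higher when 3 counts over the diet group are taken as the limit. In WT it was at 4.77, 4.52 and 5.68 CPM on diet and at 2.24, 2.96 and 2.6 with rosiglitazone, and its fitted interaction of 11.41 is not a bound. B430119L08Rik, annotated as an antisense transcript on chromosome 12, was the positive gene that was not higher with drug in KO. It was at 55.8, 34.7 and 33.9 CPM in WT on diet, 1.71, 1.56 and 1.4 in WT with rosiglitazone, 6.55 and 6.71 in KO on diet, and 2.68, 4.97 and 4.61 in KO with rosiglitazone. The drug's libraries were lower in both genotypes, and the interaction of 4.03 ± 0.42 (adjusted p = 0.0191) is the difference between -4.73 ± 0.30 and -0.70 ± 0.29. Without strand, its reads cannot be told apart from those of a gene on the other strand.

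All 5 genes with a negative interaction (0.0185% of the genes tested) rose with rosiglitazone in WT at an adjusted p of 0.05, and none passed in KO. Nat8l, the mitochondrial enzyme that makes N-acetylaspartate (chr5:33995984-34005916), was at 83.9, 71.2 and 72.4 CPM in WT on diet and at 221, 239 and 194 with rosiglitazone. In KO it was at 172 and 86.2 CPM on diet and at 51.2, 58.7 and 41.6 with rosiglitazone. The drug's libraries were the highest of the series in WT and the lowest in KO. It rose by 1.52 ± 0.25 in WT (adjusted p = 0.0236), the KO value was -1.35 ± 0.27 (adjusted p = 0.176), and the interaction was -2.87 ± 0.37 (adjusted p = 0.0369).

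Kcnt1, a sodium-activated potassium channel, had the steepest negative value of the called protein-coding genes, -3.67 ± 0.42 (adjusted p = 0.0319). It was at 1.56, 1.18 and 1.46 CPM in WT on diet, 10, 15 and 11.2 in WT with rosiglitazone, 0.837 and 1.24 in KO on diet, and 0.623, 0.527 and 0.933 in KO with rosiglitazone. The rise was seen in WT, and the KO groups overlapped. The long noncoding RNA Gm12840 (53.9 to 61.5 CPM in WT on diet and 174 to 219 with rosiglitazone) and the gene annotated as olfactory receptor Olfr1033 (13.9 to 17.1 and 52.8 to 63.8 CPM) also rose in WT, with interactions of -2.36 ± 0.29 and -2.16 ± 0.32. In KO, Gm12840 was at 146 and 91.8 CPM on diet and at 88.5, 72.7 and 80.3 with rosiglitazone, without overlap, while the KO groups of Olfr1033 overlapped. Olfr1033, with Cerk, Plxdc1 and Wdr91, lay just inside the threshold at an adjusted p of 0.0493. The fifth, Gm22419, a predicted miRNA gene, had 0 reads in WT on diet and in KO with rosiglitazone. It had 268 reads over the WT rosiglitazone libraries and 141 over the KO diet libraries, which were at least 73.5-fold and 47-fold higher with the same limit of 3 counts.

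Promoter windows of the called genes are shown because these are the genes whose drug response differed between the genotypes. RefSeq windows of GRCm38.p6 matched 14 of the 23 positive genes and none of the 5 negative ones. The letters GAGGAA, the core of sites of the myeloid factor PU.1, searched on both strands in the 250 bases before each annotated start, were present for 4 of the 14 (28.6%) and for 25.9% of all 27025 genes with a window. The E-box CACGTG, bound by factors of the TFEB type, was present for 1 of 14 (7.1%) and for 6.9% of all genes. Both shares were close to those of all genes. The windows of Itgax (chr7:128129300-128129549, plus strand, neither motif), Hmga1 (chr17:27556324-27556573, plus strand, GAGGAA read on the other strand) and Slc25a13 (chr6:6217174-6217423, minus strand, CACGTG) follow, 5′ to 3′ in the gene's direction, with a matched motif in capitals.
Itgax: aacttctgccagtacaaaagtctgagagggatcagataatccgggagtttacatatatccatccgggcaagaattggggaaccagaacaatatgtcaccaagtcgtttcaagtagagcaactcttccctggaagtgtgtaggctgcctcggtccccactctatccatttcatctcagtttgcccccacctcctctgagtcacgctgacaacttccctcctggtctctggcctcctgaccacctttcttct
Hmga1: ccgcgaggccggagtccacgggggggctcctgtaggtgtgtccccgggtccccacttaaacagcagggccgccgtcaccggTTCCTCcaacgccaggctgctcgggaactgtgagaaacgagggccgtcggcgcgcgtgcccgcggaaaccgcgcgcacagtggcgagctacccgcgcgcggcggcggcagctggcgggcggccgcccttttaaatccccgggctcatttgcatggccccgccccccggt
Slc25a13: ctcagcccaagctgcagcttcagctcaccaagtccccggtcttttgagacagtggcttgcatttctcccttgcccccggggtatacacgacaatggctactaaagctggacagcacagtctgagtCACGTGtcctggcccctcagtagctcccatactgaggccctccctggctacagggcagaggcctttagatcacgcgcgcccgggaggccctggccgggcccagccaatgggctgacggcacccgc

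De novo fatty acid synthesis, which turns citrate into fatty acids, had 1 gene just outside the threshold. Acaca, the acetyl-CoA carboxylase that commits carbon to the pathway, was at 438, 284 and 256 CPM in WT on diet, 652, 904 and 652 in WT with rosiglitazone, 2004 and 620 in KO on diet, and 152, 204 and 114 in KO with rosiglitazone. The drug's libraries lay above the diet's in WT and below them in KO, and the interaction was -4.24 ± 0.64 with an adjusted p of 0.051. Fasn, the fatty acid synthase, was at 2771, 1301 and 666 CPM in WT on diet, 2145, 2722 and 2365 in WT with rosiglitazone, 8435 and 3324 in KO on diet, and 425, 593 and 263 in KO with rosiglitazone. Its WT groups overlapped while its KO groups did not, and the interaction was -4.39 ± 0.83 (adjusted p = 0.0981). Acly, which supplies the acetyl-CoA, gave -2.60 ± 0.50 (adjusted p = 0.0981), and Mlxipl, the carbohydrate-responsive activator of these genes, gave -2.52 ± 0.52 (adjusted p = 0.125).

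Over the 22 tested members of the list, 18 were negative with a median of -1.03, beside a median of 0.000443 over all genes. The list's median was -0.35 and -1.56 without replicates 1 and 2 of KO on diet, -0.14 with a covariate for B-cell markers and -0.10 under the titles. None passed the adjusted threshold in edgeR, 9 were negative and 1 positive at an unadjusted p under 0.05, and the shares over all genes were 5.64% and 4.90%. By the DESeq2 Wald test, run as an alternative, 6 of 22 (27.3%) passed as lower, beside 0.738% of all genes. By limma-voom, another alternative, 2 (9.09%) passed as lower, beside 0.111% of all genes. Scd1, the main desaturase, did not share the pattern: it had an interaction of -0.34 ± 0.84, from -1.79 ± 0.58 in WT and -2.14 ± 0.63 in KO, neither past the threshold. Slc2a5, the fructose transporter, was at 13.7 and 5.15 CPM in KO on diet and at most 0.127 CPM in every other library. It fell with rosiglitazone in KO (-7.55 ± 0.82, adjusted p = 0.0298), and its interaction was -7.99 ± 1.47 (adjusted p = 0.0954).

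Lists of mitochondrial oxidation had higher medians with drug in WT than in KO. Of 75 nuclear subunits of oxidative phosphorylation, 45 rose with rosiglitazone in WT, where 1.55% of all genes did, and the WT and KO medians were 1.46 and 0.281. The median interaction was -1.22, 73 of 75 were negative, and 55 (73.3%) were negative at an unadjusted p under 0.05, beside 5.64% of all genes. None passed the adjusted threshold in edgeR or limma-voom, and 5 (6.67%) passed as lower in DESeq2, beside 0.738% of all genes. Cyc1, a subunit of respiratory complex III, was at 45.5, 33.1 and 27.1 CPM in WT on diet, 155, 194 and 145 in WT with rosiglitazone, 60.9 and 34.1 in KO on diet, and 60.5, 76.4 and 50.8 in KO with rosiglitazone. The WT groups did not overlap and the KO groups did (interaction -1.83 ± 0.40, adjusted p = 0.141).

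The 30 genes of pyruvate dehydrogenase and the TCA cycle had the lowest median interaction of the 27 pathway lists, -1.54, with WT and KO medians of 1.46 and 0.00567. In WT 10 rose and 1 fell, beside 1.55% and 0.593% of all genes. For the interaction, 27 were negative and 1 positive at an unadjusted p under 0.05, beside 5.64% and 4.9% of all genes. None passed the adjusted threshold in edgeR or limma-voom. In DESeq2, 7 passed as lower and 1 as higher, beside 0.738% and 1.23% of all genes. Pdha1, a catalytic subunit of pyruvate dehydrogenase, was at 105 to 231 CPM in WT on diet, 343 to 511 in WT with rosiglitazone, 575 and 191 in KO on diet and 115 to 187 in KO with rosiglitazone, with an interaction of -2.75 ± 0.63 (adjusted p = 0.159). The exception was Pdk3, a kinase that shuts pyruvate dehydrogenase off, which fell in WT (-1.36 ± 0.20, adjusted p = 0.0186), showed 0.01 ± 0.22 in KO and had an interaction of 1.36 ± 0.31.

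Mitochondrial fatty acid oxidation had 26 tested genes, of which 16 rose with rosiglitazone in WT, beside 1.55% of all genes. Its median interaction was -1.52, with 22 negative at an unadjusted p under 0.05, beside 5.64% of all genes. None passed the adjusted threshold in edgeR or limma-voom, and 4 (15.4%) passed as lower in DESeq2, beside 0.738% of all genes. Acadvl, the dehydrogenase for very long chains, was at 57.2 to 107 CPM in WT on diet, 393 to 656 in WT with rosiglitazone, 60.5 and 149 in KO on diet and 127 to 188 in KO with rosiglitazone, and its interaction was -2.02 ± 0.54 (adjusted p = 0.239). Grouped by titles, the medians of the 3 mitochondrial lists changed sign, to 1.72, 1.53 and 1.94, since the WT arm is then inverted. With a covariate for B-cell markers they were -0.40, -0.72 and -0.50, and with one for adipocyte markers, whose sums overlapped between the diet and drug groups of each genotype, they were -0.80, -1.11 and -0.97. Without replicate 1 of KO on diet they were -0.67, -0.99 and -0.73.

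**Figure D3:**
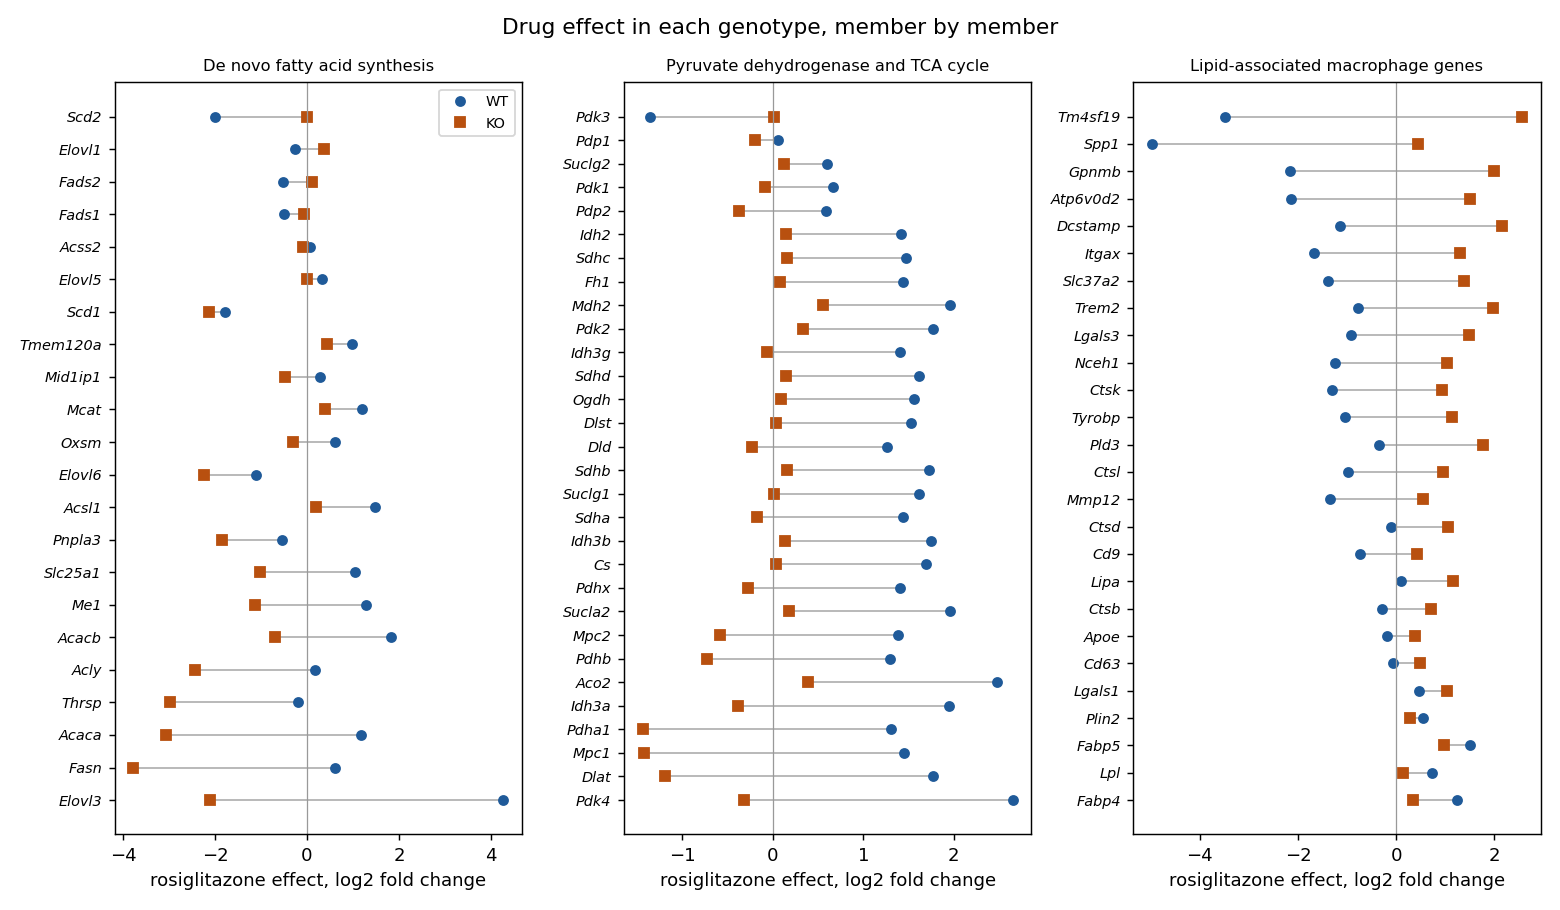
Log2 fold change with rosiglitazone in WT (circles) and KO (squares) for each tested member of 3 lists, ordered by the difference. In the middle panel the TCA cycle genes have medians of 1.46 in WT and 0.00567 in KO, and in the right panel most macrophage genes lie left of 0 in WT and right of it in KO.

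Other adipocyte programmes had negative medians with fewer separated genes. Of 26 PPARG target genes, 25 were negative with a median of -1.29, from 1.26 in WT and 0.131 in KO. At an unadjusted p under 0.05, 9 were negative, beside 5.64% of all genes. None passed the adjusted threshold in edgeR or limma-voom, and 1 (Cidea, 3.85%) passed as lower in DESeq2, beside 0.738% of all genes. The list's median was -0.34 without replicate 1 of KO on diet, -0.13 with the B-cell covariate and 1.31 under the titles. Plin5, a lipid droplet protein of oxidative fat, was at 11.3 to 26.9 CPM in WT on diet, 74.4 to 130 in WT with rosiglitazone, 33.5 and 76.9 in KO on diet and 67.7 to 79.4 in KO with rosiglitazone. It rose in WT by 2.29 ± 0.39 (adjusted p = 0.0257), and the interaction was -1.91 ± 0.55 (adjusted p = 0.279). Pck1, the enzyme of glyceroneogenesis, was at 1240 to 1908 CPM in WT on diet, 2707 to 3742 in WT with rosiglitazone, 136 and 450 in KO on diet and 279 to 333 in KO with rosiglitazone, with an interaction of -1.06 ± 0.60 (adjusted p = 0.571). The medians were -1.11 for glyceroneogenesis (19 genes), -1.10 for lipolysis (21), -0.847 for branched-chain amino acid catabolism (28) and -1.30 for brown and beige thermogenic genes (31). None of these genes passed in edgeR or limma-voom. At an unadjusted p under 0.05 in edgeR the 4 lists held 9, 9, 10 and 12 negative and 1, 0, 1 and 1 positive genes. Of all genes, 5.64% were negative and 4.9% positive at that level. In DESeq2, 2 glyceroneogenesis genes passed as lower, 0 of lipolysis, 1 of branched-chain catabolism as higher, and 3 thermogenic genes as lower and 1 as higher. Over all genes DESeq2 passed 0.738% as lower and 1.23% as higher. Without replicate 1 of KO on diet the 4 medians were -0.45, -0.15, -0.39 and -0.52, with the B-cell covariate -0.30, -0.17, -0.21 and -0.32, and under the titles 0.58, 0.95, 1.06 and 1.23. Ucp1, the uncoupling protein of thermogenic fat, was at 0, 18.1 and 0 CPM in WT on diet, 45.1, 115 and 23.7 in WT with rosiglitazone, 125 and 14.7 in KO on diet, and 30.5, 139 and 24.3 in KO with rosiglitazone. Its WT groups did not overlap and its KO groups did, with an interaction of -3.46 ± 2.43 (adjusted p = 0.656).

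Btnl4 passed the test for the drug in both genotypes. It was at 0.246 to 0.651 CPM in WT on diet, 13.6 to 21.7 in WT with rosiglitazone, 0 and 0.16 in KO on diet and 8.13 to 8.96 in KO with rosiglitazone. It rose by 5.30 ± 0.47 (adjusted p = 0.00453) in WT and 6.55 ± 0.66 (adjusted p = 0.0219) in KO, and the interaction was 1.25 ± 0.80 (adjusted p = 0.619). Sptlc3, a subunit of the enzyme that starts sphingolipid synthesis, rose in WT from 0.0982 to 0.469 CPM to 18.5 to 46.1 (adjusted p = 0.00453). In KO it was at 0 CPM on diet and at 5.17, 5.8 and 2.8 with rosiglitazone. Its interaction was not called in edgeR, and by DESeq2 it was 2.29 ± 1.63 (adjusted p = 0.598). With 0 reads in both KO diet libraries, fitted interactions of Sptlc3 are not bounds. Under the titles, where the WT arm is inverted, the interactions of Btnl4 and Sptlc3 were 11.85 (adjusted p = 0.00127) and 16.4 (adjusted p = 0.00177), both called. Lists of ATF4 targets with one-carbon synthesis (30 genes) and of cholesterol synthesis (24) had median interactions of 0.00238 and -0.174, near that of all genes (0.000443). None of their members passed in edgeR or limma-voom. In edgeR, 5 and 3 were positive and 0 and 2 negative at an unadjusted p under 0.05. Of all genes, 4.9% were positive and 5.64% negative at that level. In DESeq2, 3 ATF4 list genes passed as higher, and 2 cholesterol genes as higher and 1 as lower. Over all genes DESeq2 passed 1.23% as higher and 0.738% as lower. Under the titles the medians were 0.45 and 0.29.

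Lipid-associated macrophage genes formed the list with the highest median among the pathway lists, 2.02 over 26 tested genes, from -0.845 in WT and 1.03 in KO. Itgax was called. At an unadjusted p under 0.05, 16 (61.5%) were positive and 0 negative, beside 4.9% and 5.64% of all genes. Of the list, 9 (34.6%) crossed without overlap, beside 1.18% of all genes. By DESeq2, 11 (42.3%) passed as higher, beside 1.23% of all genes, and by limma-voom 3 (11.5%), beside 0.115%. The list's median was 3.04 and 1.46 without replicates 1 and 2 of KO on diet, the highest and lowest values with a library left out. It was 0.30 under the titles and 1.34 on the TPM scale, where the median of all genes was -0.456. Trem2, the lipid receptor that controls this state, was at 18.0, 9.18 and 17.3 CPM in WT on diet, 10.3, 8.87 and 6.98 in WT with rosiglitazone, 42.6 and 19.0 in KO on diet, and 142, 98.3 and 120 in KO with rosiglitazone. KO with rosiglitazone stood above all other libraries, and the interaction was 2.73 ± 0.52 (adjusted p = 0.0981).

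Tm4sf19, a membrane protein of multinucleated macrophages and osteoclasts, was at 3.77, 0.933 and 1.98 CPM in WT on diet, 0.142, 0.124 and 0.381 in WT with rosiglitazone, 6.3 and 1.96 in KO on diet, and 19.4, 23.1 and 30.4 in KO with rosiglitazone. It fell in WT (-3.49 ± 0.69, adjusted p = 0.0366), and the interaction was 6.05 ± 0.95 (adjusted p = 0.0552). Gpnmb, a glycoprotein of lipid-laden macrophages, was at 28.0 to 110 CPM in WT on diet, 10.3 to 20.7 in WT with rosiglitazone, 94.7 and 445 in KO on diet and 977 to 1242 in KO with rosiglitazone, with an interaction of 4.18 ± 0.95 (adjusted p = 0.152). The 4 negative members were Fabp4, Fabp5, Lpl and Plin2, which adipocytes also express.

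Macrophage markers in general gave a smaller median, 0.813 over 26 genes. At an unadjusted p under 0.05, 9 were positive and 1 negative, beside 4.9% and 5.64% of all genes. As higher, 1 passed in edgeR and 1 in limma-voom, beside 0.0853% and 0.115% of all genes. In DESeq2, 6 (23.1%) passed as higher and 1 (3.85%) as lower, beside 1.23% and 0.738% of all genes. Itgax and Trem2 are in both lists. The sum of the general markers was 1214 to 1654 CPM in WT on diet, 842 to 1035 in WT with rosiglitazone, 1547 and 4429 in KO on diet and 3071 to 3812 in KO with rosiglitazone. The KO groups overlapped in this sum, and replicate 1 of KO on diet was the highest library of the series. The part of macrophage number in the values of the lipid-associated list was not tested. The median of the general markers was 1.88 and 0.20 without replicates 1 and 2 of KO on diet and -0.28 under the titles. On the TPM scale it was 0.17, beside -0.456 over all genes.

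**Figure D4:**
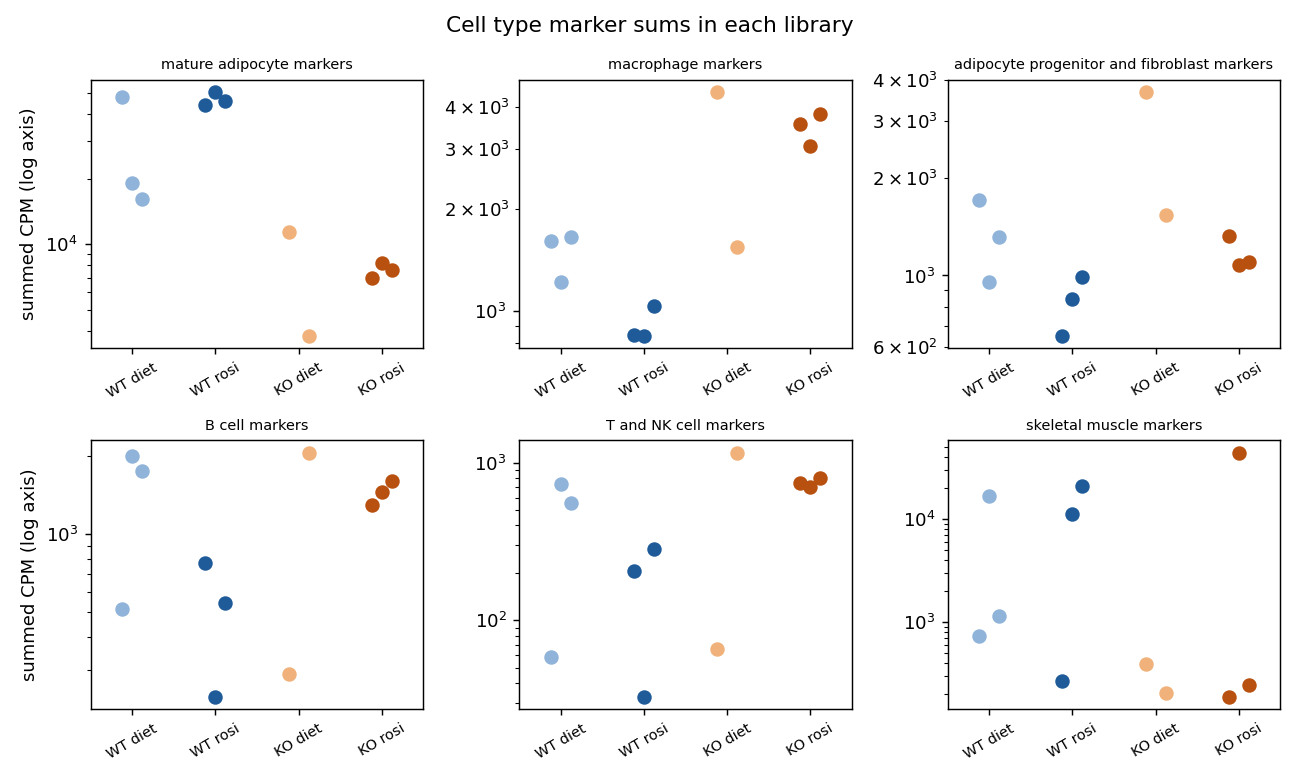
Summed level of 6 cell type marker lists in each library (CPM, log axes), by genotype and treatment. Adipocyte sums are lower in KO than in WT, macrophage sums are lowest in WT with rosiglitazone, and B-cell, T-cell and muscle sums vary between replicates of a group.

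Cell cycle genes were positive throughout. All 35 tested members had a positive interaction, with a median of 1.26 from -0.33 in WT and 0.828 in KO, 24 (68.6%) at an unadjusted p under 0.05 (4.90% of all genes) and 10 (28.6%) crossing without overlap (1.18% of all genes). None passed the adjusted threshold in edgeR or limma-voom, and 15 (42.9%) passed as higher in DESeq2, beside 1.23% of all genes. Kif11, a motor of the mitotic spindle, was at 10.6, 10 and 13.1 CPM in WT on diet, 6.57, 9.02 and 7.29 in WT with rosiglitazone, 6.75 and 9.9 in KO on diet, and 16.5, 18.3 and 16.3 in KO with rosiglitazone. KO with rosiglitazone stood above all others, and the interaction was 1.59 ± 0.30 (adjusted p = 0.0981). The list's sum was 437 to 559 CPM in WT on diet, 359 to 389 in WT with rosiglitazone, 399 and 471 in KO on diet and 620 to 724 in KO with rosiglitazone.

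B-cell markers summed to 512 to 2003 CPM in WT on diet, 236 to 773 in WT with rosiglitazone, 289 and 2060 in KO on diet and 1291 to 1598 in KO with rosiglitazone. All 20 were positive, with a median of 2.09, and 1 (5%) reached an unadjusted p under 0.05, beside 4.9% of all genes. All 25 T and NK cell markers were positive too, with a median of 1.54 and 0 at that level. Without replicate 1 of KO on diet the B-cell and T and NK cell medians were 1.14 and 0.65, without replicate 2 they were 5.93 and 5.64, and under the titles -1.29 and -1.08. The B-cell sums of KO with rosiglitazone lay within the range of the KO diet libraries. With B-cell markers as a covariate the cell cycle median was 1.08. That median was 1.02 to 1.5 with each library left out and 0.46 under the titles. On the TPM scale it was 0.33, beside a median of -0.456 over all genes.

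Lysosomal genes and cytosolic ribosomal proteins had small positive medians. Of 45 lysosomal genes, 37 were positive with a median of 0.489, and 13 were positive at an unadjusted p under 0.05, beside 4.9% of all genes. None passed in edgeR or limma-voom, and 6 (13.3%) passed as higher in DESeq2, beside 1.23% of all genes. Ctss, the cathepsin of antigen-presenting cells, was at 79.3 to 111 CPM in WT on diet, 25.5 to 36.9 in WT with rosiglitazone, 121 and 220 in KO on diet and 218 to 341 in KO with rosiglitazone (interaction 2.23 ± 0.42, adjusted p = 0.0981). Of 76 ribosomal proteins, 72 were positive with a median of 0.426. At an unadjusted p under 0.05, 9 (11.8%) were positive and 0 negative, beside 4.9% and 5.64% of all genes. None of them passed in edgeR or limma-voom, and 4 (5.26%) passed as higher in DESeq2, beside 1.23% of all genes. Without replicate 1 of KO on diet the 2 medians were 1.01 and 0.28, and under the titles both were 0.29. Both medians changed sign on the TPM scale, to -0.13 and -0.32, where the median of all genes shifted by -0.456, so that relative to all genes they remained positive there.

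**Figure D5:**
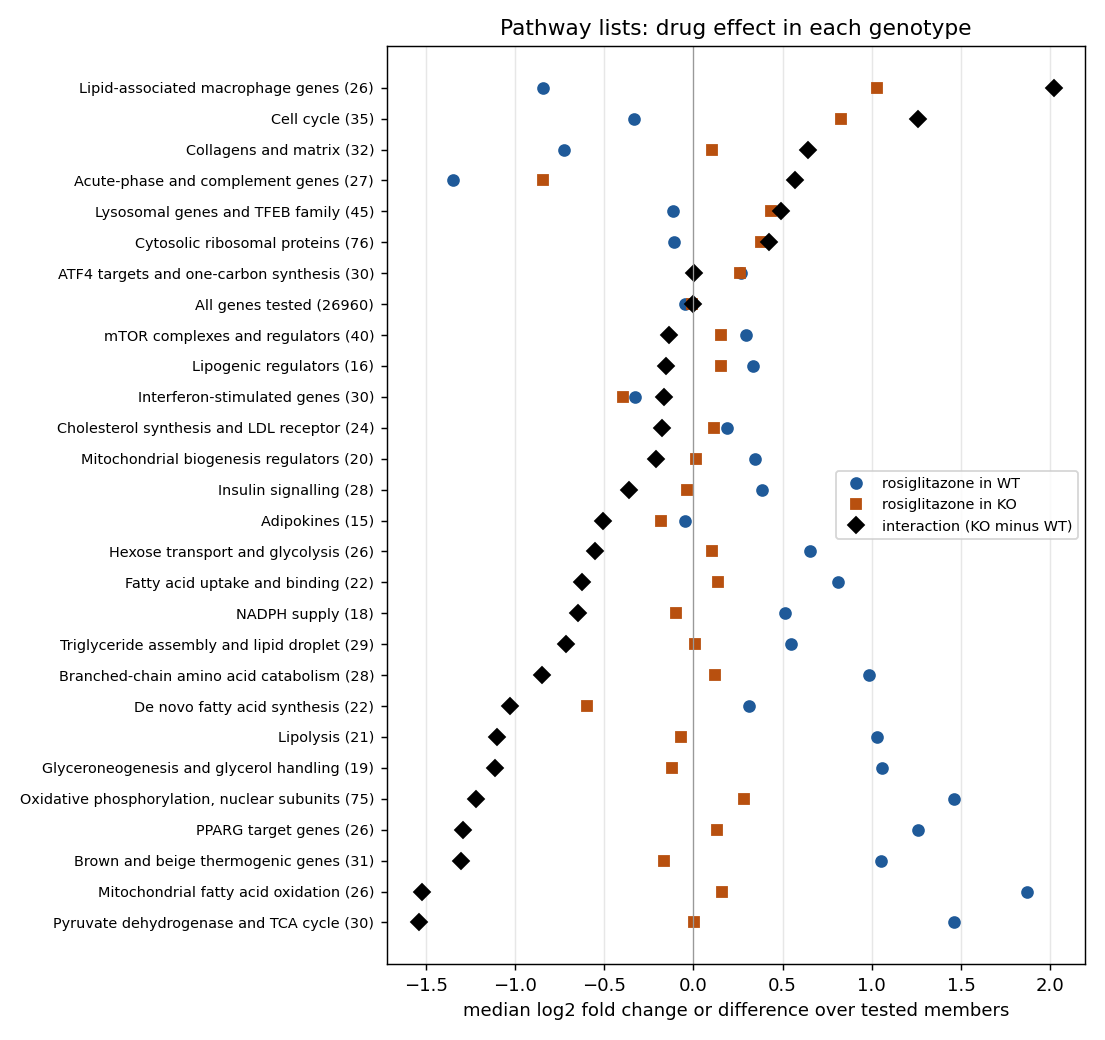
Median over the tested members of each pathway list (number in brackets) of the log2 fold change with rosiglitazone in WT (circles) and KO (squares) and of the interaction (diamonds). The lists of mitochondrial oxidation lie near the bottom, with WT medians of 1.46 to 1.87 and KO medians of at most 0.281. Mitochondrial biogenesis regulators lie higher, with medians of 0.343 in WT and 0.0159 in KO and a median interaction of -0.212. Macrophage and cell cycle genes are at the top, with medians on either side of 0.

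Skeletal muscle markers had a median interaction of 5.11, which was -1.17 without replicate 2 of KO with rosiglitazone, the library richest in them, and none of the 21 was called. Without the 4 libraries richest in muscle marker reads, an alternative chosen after seeing the data, WT with rosiglitazone kept 1 library. All 28 called genes, selected in the same libraries, kept their sign there. Apart from Hist1h2ap and Gm22419 their values moved by at most 0.86. With muscle markers as a covariate 1 gene passed, and the largest move, again apart from Hist1h2ap and Gm22419, was 0.10.

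The number called varied with the library left out. It was 113, 3 and 3 without replicates 1, 2 and 3 of WT on diet, 2, 1 and 1 without those of WT with rosiglitazone, 60 and 348 without replicates 1 and 2 of KO on diet, and 4, 4 and 1 without those of KO with rosiglitazone. In all of these the 28 genes kept their sign. They were selected for this difference in the same libraries, so kept signs describe them and test nothing. Among the runs without a library of another group than KO on diet, Hist1h2ap was the 1 gene that passed each time. DESeq2 called 531, including all 28. With WT grouped by titles 154 genes were called, 4 of them among the 28, and 15 of the 28 changed sign.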

How the data were processed

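Frozen inguinal fat was extracted with Trizol and sequenced from Nextera XT libraries, with no strand stated, per the labels' protocols. The authors used Salmon, and edgeR, mm10 and GRCm38 are also named, per the submitters' processing notes; their versions are not given in those notes. Per the file headers, each deposited table gives 1 library's estimated count and TPM per transcript, TPM being scaled by effective length and to a fixed total.

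Transcripts were matched to GENCODE M21 (131892 of 132288, 99.7%), and estimated counts were summed to 52282 genes and rounded. Unmatched transcripts held 0.0985% to 0.144% of reads. Groups follow the genotype and treatment fields. The 4 group means were fitted with edgeR 4.0.16 (R 4.3.3; TMM scaling, default expression filter, robust quasi-likelihood test), Benjamini-Hochberg adjustment ran over 26960 genes, and errors are SE of the log2 value. CPM are TMM-scaled counts. No pair of libraries was identical (chi-square per degree of freedom between replicates 26.5 to 139). Alternatives used DESeq2 1.42.0, limma 3.58.1, other scalings and filters, marker covariates, the replicate number as a block, titles, and each library left out.

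On simulated counts for 26301 genes the interaction test recovered 0% of 2-fold, 24% of 4-fold, 62% of 8-fold and 86% of 16-fold differences (50 genes each), with 3 calls among unchanged genes. The text names every gene called, 27 fixed genes, the 8 smallest p and the 5 most extreme values in each direction among genes averaging at least 1 log2 CPM, and up to 3 genes per described list, although not all of them are printed. Members of a list beyond that, such as the negative macrophage members, were chosen after their values were seen. The comparison, the 37 gene lists and this rule were chosen with earlier results of these data known. Reads shared by paralogs are divided by Salmon's model, and floors cover counting error only.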

Additional observations from a re-analysis of the deposited data

Results flagged for a closer look

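For each of the following 28 genes the interaction term, which tests the difference between the drug's effect in KO and in WT, passed an adjusted p of 0.05 in edgeR, and the value is the log2 fold change in KO minus that in WT. Genes known from leukocytes, or with lysosomal or endosomal products, had 2.98 (Itgax), 2.3 (Myo1f), 1.89 (Cyth4), 1.53 (Gpr137b), 1.4 (Gpr137b-ps), 1.69 (Tcirg1), 2.34 (Slc15a3) and 1.55 (Wdr91). Genes best known from neurons, secretory cells or adhesion had 3.05 (Cpe), 2.76 (Cadm1), 5.42 (Nptx1), 4.41 (Npas4), 2.97 (Pianp), 2.74 (Map2), 1.95 (Tns3) and 3.32 (Plxdc1). The others above 0 were 2.41 (Myo1e), 1.63 (Cerk), 2.06 (Hmga1), 2.18 (C77080), 2.37 (Slc25a13), 4.03 (B430119L08Rik) and 11.41 (Hist1h2ap). Those below 0 were -2.87 (Nat8l), -3.67 (Kcnt1), -2.36 (Gm12840), -2.16 (Olfr1033) and -18.32 (Gm22419).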

How the results depend on the processing

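The counts of genes called depended on the tool, the filter and single libraries. The interaction gave 44 calls with upper-quartile scaling, 531 with DESeq2, 61 with limma-voom, 47 with no filter, 44 with at least 1 CPM in 3 libraries, 5 on log2(TPM + 1), 52 over protein-coding genes, 154 with WT by titles, and 278, 1 and 663 with B-cell, muscle and adipocyte marker covariates. Rosiglitazone in WT (578 calls) gave 1981 with DESeq2, 7325 with limma-voom, 48 on log2(TPM + 1), 947 over protein-coding genes, and 1390, 144 and 1851 with the 3 covariates. Rosiglitazone in KO (4 calls) gave 14 with upper-quartile scaling, 364 with DESeq2, 0 with limma-voom (1153 at an unadjusted p under 0.05), 20 with no filter, 2 with at least 1 CPM in 3 libraries, 254 on log2(TPM + 1), 11 over protein-coding genes, and 328 and 1032 with the B-cell and adipocyte covariates. Without the 4 libraries richest in muscle marker reads all 3 comparisons gave 0 calls in edgeR, with 750, 958 and 1045 at an unadjusted p under 0.05 for the interaction, WT and KO. With each library left out the counts were 1 to 348, 18 to 2779 and 1 to 145. A group with 1 library left is assumed to vary like the other groups. This holds for KO on diet and, without the 4 libraries richest in muscle marker reads, for WT with rosiglitazone. Apart from the fewer libraries or genes tested, the cause of these shifts was not tested.

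With the replicate number as a block, the interaction gave 1 call and the KO arm 1. Whether the numbers pair the samples could not be decided from the libraries. Of 15 same-numbered pairs across groups, 6 had deviations correlated over 0.1, with a range of -0.42 to 0.61. The deviations of the KO diet libraries mirrored each other, so these pairs were not independent.

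The 28 called genes kept their sign under every alternative run except the titles. They were selected for this difference in the same libraries, so kept signs describe them and test nothing. Grouping WT by titles inverts the WT arm and gave -0.2 for Slc25a13, -0.08 for Map2, -0.1 for Cyth4, -0.31 for Tns3, -0.42 for Slc15a3, -0.45 for Pianp, -0.39 for Itgax, -0.02 for Myo1e, -0.26 for Cerk and -5.43 for B430119L08Rik. It gave 1.66 for Olfr1033, 0.17 for Nat8l, 2.53 for Kcnt1, 1.23 for Gm12840 and 0.21 for Gm22419. Among genes not called in the main comparison it gave calls of 3.13 for Acadvl, 2.62 for Cyc1, 1.37 for Esrra and -4.43 for Serpina1a, against -2.02, -1.83, -0.90 and 3.40. It also gave calls of 11.85 for Btnl4, 16.4 for Sptlc3 and -4.23 for Cfd.

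With 2 or 3 libraries a group the interaction test recovered few 4-fold differences on simulated counts, so a gene that missed the threshold is not shown to respond alike in both genotypes. Genes under about 1 CPM, such as Npas4 in WT, rest on few reads. Only RNA of whole tissue was measured.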
